A study of Homo sapiens with 14 samples.

Results

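In the first set of libraries from IMR90 cells, human lung fibroblasts that are widely used as a cell line, the replicate 1 and replicate 2 libraries of 2 treated groups lay far apart, and in the same way in both groups. The 4 libraries are replicates 1 and 2 of cells treated with inflachromene (ICM), here ICM 1 and ICM 2, and replicates 1 and 2 of ICM-treated cells whose labels give an siRNA against BANF1, here labelled siBANF1 1 and 2. A gene was taken as a member when it codes for protein, reached a mean CPM (its count scaled to the size of the library) of at least 10 over these 4 libraries, and differed by more than 2-fold in the same direction between replicates 1 and 2 of both groups. Of 8730 protein-coding genes at that CPM minimum, 951 were higher and 1188 were lower in the replicate 1 libraries. These are 10.9% and 13.6% of the genes, the shares that the rule itself fixes. The genes were chosen by the folds between these 4 libraries, so the folds are given as a description, with 1 library on each side and no test. The comparisons with untreated cells were tested on the other 10 libraries of the series, and the fit of all 14 libraries is given only as an alternative.

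The series holds 14 libraries of RNA from IMR90 cells. The groups used beside the 4 libraries were untreated cells (WT, 2 libraries), untreated cells with an siRNA against HMGB2 (siHMGB2, 2 libraries), ICM-treated cells with an siRNA against SRRM2 (siSRRM2, 2 libraries), a second set of ICM-treated cells (ICM 3 and ICM 4) and ICM-treated cells with an siRNA against CTCF (siCTCF, 2 libraries). ICM was given at 10 µM for up to 6 days, per the labels, and the exact time of each library is not given. The labels of ICM 3, ICM 4 and the siCTCF libraries are written in another form and name other numbers in the cell line field, and these 4 libraries were treated as a second set. The growth protocol names 2 isolates of IMR90 and does not say which library came from which. Nothing in the labels says whether replicates were separate cultures, so p-values measure the spread between these libraries, which may be technical.

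Cellular senescence is a lasting exit from the cell cycle. Senescent fibroblasts typically raise the cell cycle inhibitor p21, encoded by CDKN1A and induced by p53, and lose the nuclear lamina protein lamin B1. Many also secrete cytokines, proteases and growth factors, a state known as the senescence-associated secretory phenotype. Inflachromene binds the chromatin proteins HMGB1 and HMGB2. Fibroblasts make the collagens and other proteins of the extracellular matrix.

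The targeted genes were read first. The SRRM2 level was 454 and 515 CPM in WT, and ICM 1 and ICM 2 had 244 and 107 CPM. In siSRRM2 it was 75.1 and 76.5 CPM, while labelled siBANF1 1 had 62.2 CPM and labelled siBANF1 2 had 16.5 CPM. SRRM2, a scaffold of nuclear speckles, thus had its lowest levels of the series under the siBANF1 label. The BANF1 level, for a protein that bridges DNA at the nuclear envelope, was 17.9 and 35.6 CPM under the siBANF1 label, where ICM 1 and ICM 2 had 13.9 and 31.2 CPM. The label is therefore kept only as a name, since BANF1 was not lower there than in the ICM library of the same replicate number. HMGB2 stood at 30.1 and 30.3 CPM in WT and 3.51 and 4.01 CPM in siHMGB2. CTCF stood at 67.5 and 20.3 CPM in the siCTCF libraries, beside 89.5 and 79.9 CPM in ICM 3 and ICM 4.

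Library totals ran from 22336161 to 58257456 gene counts. Several measures of the libraries moved with the contrast. Reads that fell in no annotated gene made up 16.4% in ICM 1 and 18.4% in labelled siBANF1 1, beside 4.73% and 5.16% in the replicate 2 libraries and 2.69% to 8.87% in all other libraries. Small RNA genes took 6.06% and 4.50% of gene counts in the replicate 1 libraries and 3.19% and 3.94% in the replicate 2 libraries. The same share was 5.11% and 5.77% in siSRRM2 and at most 0.00835% in WT, siHMGB2 and the second set, so the first-set treated libraries also differ from WT in this measure. The part of these differences in the results below was not tested. All 13 fibroblast markers reached 1 CPM in some library, and their sum was 13351 and 9270 CPM in the replicate 1 libraries, 4171 and 4638 CPM in the replicate 2 libraries and 21512 and 28527 CPM in WT. The 9 epithelial markers summed to at most 0.830 CPM in every library, and 6 of them had no count anywhere.

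The folds of the 2 groups ran together across the 8730 genes (Pearson's r = 0.87 across genes, which are not independent replicates). ICM 1 and ICM 2 differed by over 2-fold at 2948 genes, and labelled siBANF1 1 and 2 at 3055. Only 6 genes passed 2-fold in opposite directions, among them CXCL2, a chemokine gene. The higher genes had the larger folds, with 283 of them over 4-fold in both groups, against 81 of the lower genes. At over 16-fold in both groups there were 24 higher genes and 1 lower gene, TXNIP. The median of the smaller of the 2 folds was 2.95 for the higher and 2.45 for the lower genes. No member had a library under 3 counts, the floor used for ratios.

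**Figure D1:**
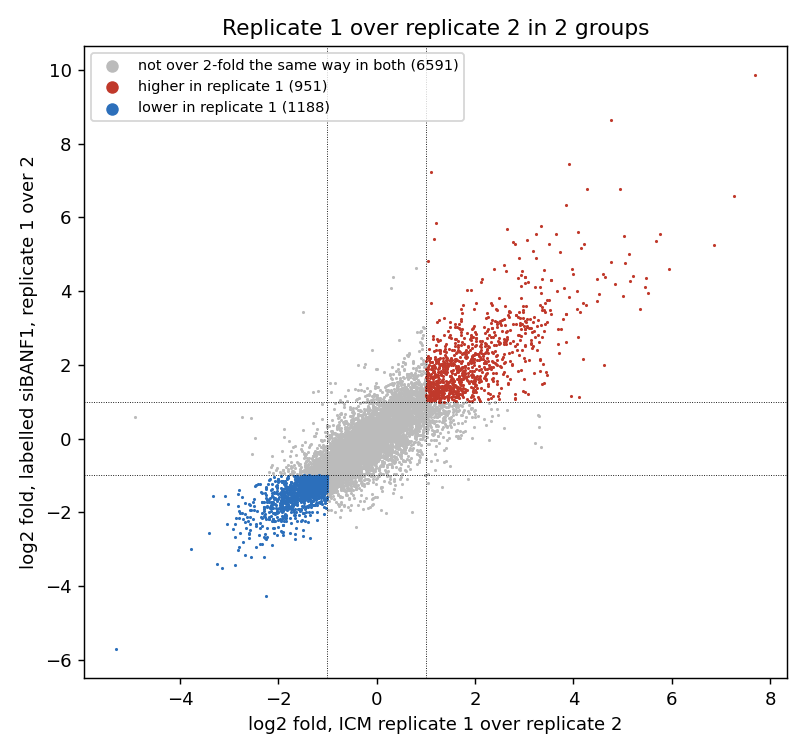
Each point is 1 of 8730 protein-coding genes, with the log2 fold of ICM replicate 1 over replicate 2 on the x axis and the same fold in the libraries labelled siBANF1 on the y axis, and dotted lines at 2-fold. The 951 genes higher and 1188 genes lower in replicate 1 lie along 1 diagonal, and the higher genes reach the larger folds.

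The threshold cuts through a continuous distribution. TGFBR2, a receptor for TGF-beta, was just inside at 2.43-fold in ICM and 2.00-fold in the libraries labelled siBANF1, and DYNC2H1, a dynein of cilia, was just outside at 2.40-fold and a fold that rounds to the same 2.00. Among lower genes, ARF4 was just inside and MRPL43 just outside, at 2.00-fold lower in ICM for both. The split between directions depends on the scaling. Of all members, 44.5% were higher with the trimmed mean of M-values used here (TMM), 35.7% with total counts (823 higher and 1482 lower), 39.8% with protein-coding counts (907 and 1371) and 54.4% with relative log expression (1122 and 939). The median log2 fold of all genes was -0.23 in ICM and -0.18 in the libraries labelled siBANF1, and the folds below were not corrected for this shift. Of the 951 higher genes 823 also passed with total counts and all 951 with relative log expression, and of the 1188 lower genes 1188 and 939 did.

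Extracellular matrix genes were higher in the replicate 1 libraries. Of 46 listed genes at the CPM minimum, 34 were higher and none was lower, with median log2 folds of 2.40 in ICM and 1.92 in the libraries labelled siBANF1. NID1, the basement membrane glycoprotein nidogen, had levels of 258 CPM in ICM 1 and of 339 CPM in labelled siBANF1 1, beside 18.5 and 20.1 CPM in the replicate 2 libraries. It was at 276 and 331 CPM in WT, so the replicate 1 libraries lay at or near the untreated level. COL6A3, a chain of the microfibrillar collagen VI, was at 5832 and 5555 CPM in the replicate 1 libraries, 345 and 484 CPM in the replicate 2 libraries, and 5067 and 6077 CPM in WT. Its level in ICM 3 and ICM 4 was 166 and 70.8 CPM, below both replicate 2 libraries. Fibronectin, FN1, a ligand of integrins, followed the same order, with 7445 and 7486 CPM in the replicate 1 libraries, 781 and 896 CPM in the replicate 2 libraries and 5720 and 7114 CPM in WT. Not every matrix gene reached the untreated level. COL1A1, a chain of collagen I, was at 1088 and 1243 CPM in the replicate 1 libraries and 421 and 500 CPM in the replicate 2 libraries, all below its WT levels of 5542 and 8790 CPM. BGN, the proteoglycan biglycan, was at 25.2 and 44.4 CPM beside 2.44 and 2.23 CPM, with 226 and 261 CPM in WT.

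The families of matrix and adhesion genes were read after the values had been seen. Of 21 collagen genes at the CPM minimum 18 were higher, as were 5 of 7 laminins and 8 of 15 integrins, and none of the 3 families had a lower gene. ITGA8, an integrin subunit, had 166 and 98.6 CPM in the replicate 1 libraries and 1.07 and 1.03 CPM in the replicate 2 libraries. Its WT levels were 31.9 and 51.0 CPM, so both replicate 1 libraries lay above WT.

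Genes of the senescence-associated secretory phenotype were mostly on the higher side too, with 28 of 47 higher and 2 lower. The median log2 folds were 1.18 in ICM and 2.14 in the libraries labelled siBANF1. CSF2, which encodes the cytokine GM-CSF, was at 20.9 and 114 CPM in the replicate 1 libraries and 0.772 and 0.283 CPM in the replicate 2 libraries. Its WT levels were 2.50 and 1.25 CPM, so both replicate 1 libraries were above WT. PLAT, tissue plasminogen activator, was at 10895 and 9192 CPM beside 475 and 603 CPM, with 4620 and 4152 CPM in WT. IL6 had 66.4 CPM in ICM 1 but stood at 717 CPM in labelled siBANF1 1, so the 2 replicate 1 libraries were themselves far apart. It was at 29.4 and 16.8 CPM in the replicate 2 libraries, 549 and 312 CPM in WT and 0.631 and 0.548 CPM in ICM 3 and ICM 4. CXCL8, a chemokine that attracts neutrophils, was at 797 and 6460 CPM beside 385 and 230 CPM. Its WT levels were 1914 and 809.5 CPM, so ICM 1 lay below and labelled siBANF1 1 above both WT libraries. The 2 listed genes on the lower side were IGFBP3, which binds insulin-like growth factors, and SPP1, the secreted phosphoprotein osteopontin. IGFBP3 was at 97.3 and 24.3 CPM in the replicate 1 libraries and 463 and 468 CPM in the replicate 2 libraries.

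Of 18 genes of the NF-kB pathway, which drives many secretory genes, 5 were higher and none lower. TNFAIP3, a feedback inhibitor of the pathway, was at 115 and 323 CPM in the replicate 1 libraries and 26.5 and 16.9 CPM in the replicate 2 libraries. Immediate-early genes were divided, with 7 of 25 higher, NR4A1 among them, and 2 lower. The 2 lower ones were ATF3, a stress transcription factor, and DUSP5, a phosphatase that acts on ERK. Of 18 interferon-stimulated genes 4 were higher and 1 was lower. GBP2, a guanylate-binding protein, was at 26.7 and 13.98 CPM in the replicate 1 libraries and 0.597 and 0.682 CPM in the replicate 2 libraries.

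Contractile and adhesion genes had 11 of 33 higher and none lower. MYLK, the kinase that activates myosin light chain, was at 868 and 983 CPM in the replicate 1 libraries and 85.1 and 117 CPM in the replicate 2 libraries. In WT it was at 306 and 485 CPM. MYOCD, a coactivator of smooth muscle genes, was at 63.6 and 27.9 CPM in the replicate 1 libraries and 1.04 and 1.15 CPM in the replicate 2 libraries. Levels in a bulk sample do not tell fewer cells of a type from less RNA per cell. The summed level of the 5 smooth muscle and pericyte markers was 211 and 638 CPM in the replicate 1 libraries, 21.2 and 21.7 CPM in the replicate 2 libraries, 650 to 775 CPM in WT, 27.9 and 31.3 CPM in siSRRM2 and 11.5 and 27.1 CPM in ICM 3 and ICM 4. It came from RGS5, NOTCH3 and CSPG4, while the defining markers MYH11 and DES were at most at 0.525 CPM in every library. The 7 endothelial markers summed to 250 and 133 CPM beside 65.2 and 63.1 CPM, and to 81.8 and 97.1 CPM in WT, nearly all of it from TEK, and PECAM1 was at most at 0.149 CPM. The 7 leukocyte markers summed to 13.5 and 4.60 CPM beside 1.07 and 0.865 CPM, with CD14 alone above 1 CPM. The part of other cells in the results was not tested.

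Messenger RNAs of the mitochondrial genome, which encode core subunits of the respiratory chain, were higher in replicate 1 without exception among the 11 at the CPM minimum. Their median log2 folds were 2.66 in ICM and 4.55 in the libraries labelled siBANF1. ND4, a subunit of complex I, was at 273 and 693 CPM in the replicate 1 libraries and 20.8 and 20.8 CPM in the replicate 2 libraries. All 4 lay far below WT, at 4592 and 4087 CPM. ICM 3 and ICM 4, at 233 and 239 CPM, lay between the replicate 1 and the replicate 2 libraries. COX1, a subunit of complex IV, was at 2460 and 3685 CPM, beside 298 and 306 CPM, and 12712 and 11531 CPM in WT. Together the mitochondrial mRNAs took 0.454% and 0.754% of gene counts in the replicate 1 libraries, 0.0677% and 0.0685% in the replicate 2 libraries, and 2.699% to 3.54% in WT and siHMGB2. Neighbouring mitochondrial genes overlap, and nuclear copies of them exist, so single values depend on how reads were assigned. Nuclear genes of the respiratory chain went the other way, with 19 of 70 lower and none higher. CYC1, cytochrome c1 of complex III, was at 66.8 and 71.4 CPM in the replicate 1 libraries and 229 and 259 CPM in the replicate 2 libraries.

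The lysosome list held 11 higher genes and 1 lower gene of 33. TPP1, a lysosomal peptidase, was at 147 and 322 CPM in the replicate 1 libraries and 18.1 and 15.4 CPM in the replicate 2 libraries. It was at 283 and 286 CPM in WT and 183 and 176 CPM in ICM 3 and ICM 4, while siSRRM2, at 17.7 and 16.7 CPM, lay with the replicate 2 libraries. GAA, the lysosomal alpha-glucosidase, was at 58.1 and 85.4 CPM beside 14.3 and 12.9 CPM. The lower gene was ATP6V1H, a subunit of the proton pump.

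The lower genes included many p53 targets. Of 34 listed genes 17 were lower in replicate 1 and none was higher, with median log2 folds of -1.05 in ICM and -1.24 in the libraries labelled siBANF1. CDKN1A, which encodes p21, was at 1570 and 1602 CPM in the replicate 1 libraries and 6644 and 7507 CPM in the replicate 2 libraries. The replicate 1 libraries lay close to WT, at 1291 and 1327 CPM, and the replicate 2 libraries on the side of siSRRM2, at 9836 and 10327 CPM, and of ICM 3 and ICM 4, at 10187 and 11365 CPM. GADD45A, induced by DNA damage, was at 22.5 and 21.7 CPM in the replicate 1 libraries, 108 and 95.2 CPM in the replicate 2 libraries and 32.1 and 31.1 CPM in WT. TRIAP1, an inhibitor of apoptosis, was at 33.1 and 33.2 CPM beside 154 and 178 CPM, with 44.6 and 39.2 CPM in WT. FAS, a death receptor, was at 68.4 and 36.5 CPM beside 234 and 218 CPM. MKI67 and LMNB1, both below the CPM minimum, were read beside CDKN1A. MKI67, a marker of proliferating cells, was at 1.12 and 1.07 CPM in the replicate 1 libraries and 0.246 and 0.266 CPM in the replicate 2 libraries, against 35.6 and 42.0 CPM in WT. LMNB1, lamin B1, was at 1.58 and 1.79 CPM beside 2.41 and 2.81 CPM, against 23.3 and 21.6 CPM in WT. All 4 libraries were thus far below WT for both genes, with MKI67 higher and LMNB1 lower in the replicate 1 libraries. Only 6 of 40 mitosis genes and 12 of 40 DNA replication genes reached the CPM minimum, 3 and 2 of them lower and 1 and 0 higher in replicate 1.

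Ribosome biogenesis had the largest share of lower genes among the 24 lists, with 22 of 32 lower and none higher. The median log2 folds were -1.84 in ICM and -1.29 in the libraries labelled siBANF1. NOP56, a core protein of box C/D nucleolar particles, was at 47.4 and 90.5 CPM in the replicate 1 libraries and 651 and 729 CPM in the replicate 2 libraries. Its levels of 662 and 616 CPM in ICM 3 and ICM 4 lay beside those of the replicate 2 libraries, and WT was at 125 and 103 CPM. WDR43, a factor of small-subunit assembly, was at 70.0 and 67.9 CPM beside 419 and 382 CPM, with 59.98 and 59.0 CPM in WT. Mitochondrial ribosomal proteins, a family read after the values had been seen, had 44 of 71 genes lower and none higher. MRPS22 was at 29.5 and 33.1 CPM in the replicate 1 libraries and 161 and 166 CPM in the replicate 2 libraries. The mitochondrial protein import genes named TIMM or TOMM had 13 of 21 lower and none higher, and the DEAD-box RNA helicases 13 of 29 lower and 1 higher. Cytosolic ribosomal proteins had 8 of 70 lower and none higher, a share of lower genes no larger than that over all genes. RPS26 and other ribosomal proteins have near-identical pseudogenes that can share their reads.

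Proteasome subunits had 13 of 33 lower. PSMB6, a catalytic subunit of the constitutive proteasome, was at 50.1 and 57.6 CPM in the replicate 1 libraries and 216 and 236 CPM in the replicate 2 libraries. The 1 higher gene was PSMB10, a subunit of the immunoproteasome, at 37.9 and 47.6 CPM beside 17.7 and 19.9 CPM. Splicing factors had 15 of 68 lower and 1 higher, the higher gene being SRRM2 itself. PRPF4, a protein of the U4/U6 particle, was at 31.3 and 36.8 CPM beside 139 and 144 CPM.

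NRF2 targets, genes of the antioxidant response, had 9 of 22 lower and 1 higher, and heat shock genes 9 of 20 lower and 1 higher. HMOX1, heme oxygenase 1, was at 35.9 and 40.1 CPM in the replicate 1 libraries and 252 and 323 CPM in the replicate 2 libraries. It was at 56.5 and 59.0 CPM in WT and reached 2633 and 3517 CPM in ICM 3 and ICM 4, far above all 4. HSPB8, a small heat shock protein, was at 13.7 and 14.1 CPM beside 71.2 and 76.4 CPM. The endoplasmic reticulum and ATF4 list had 7 of 44 lower, close to the share over all genes, and 3 higher. DDIT3, the stress factor CHOP, was at 28.6 and 45.7 CPM in the replicate 1 libraries and 236 and 227 CPM in the replicate 2 libraries. CHAC1, an ATF4 target that breaks down glutathione, went the other way, at 186 and 337 CPM beside 35.0 and 48.1 CPM. MT1E, a metallothionein with close paralogs, was at 57.2 and 48.6 CPM beside 397 and 377 CPM. Replication-dependent histones, whose mRNAs lack a poly(A) tail, had 6 of 13 lower and 3 higher. H4C8 was at 14.1 and 7.65 CPM in the replicate 1 libraries and 82.5 and 70.6 CPM in the replicate 2 libraries, while H1-4 was at 69.0 and 95.9 CPM beside 16.1 and 16.7 CPM. In WT, H4C8 was at 0.42 and 0.51 CPM and H1-4 at 0.36 and 0.15 CPM, so all 4 libraries lay far above WT. The median log2 difference of the listed histone genes from WT was 4.16 in the replicate 1 and 5.29 in the replicate 2 libraries. Histone genes are near-identical copies, so their single values are uncertain.

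Sterol and fatty acid synthesis had 1 of 30 higher and 4 lower, neither above the shares over all genes (10.9% and 13.6%). Glycolysis and hypoxia genes had 4 of 29 higher, close to the share over all genes, and 1 lower. HK2, a hexokinase, was at 501 and 617 CPM in the replicate 1 libraries and 131 and 134 CPM in the replicate 2 libraries. Its WT levels were 121.0 and 120.6 CPM, so here the replicate 2 libraries lay near WT and the replicate 1 libraries above it. Chromatin and nuclear envelope genes had none of 25 higher and 1 lower, the nucleosome-binding gene HMGN3. The zinc finger genes named ZNF had 11 of 257 higher and 14 lower, both below the shares over all genes.

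**Figure D2:**
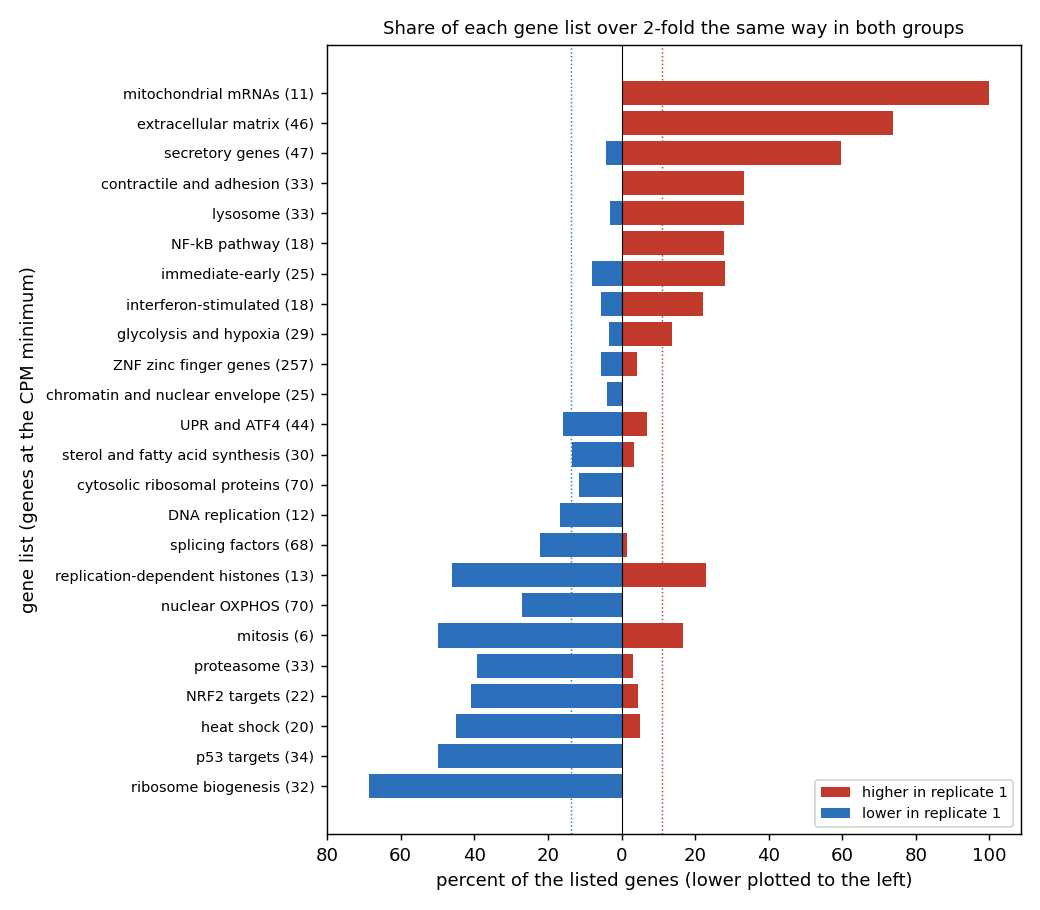
Bars give the percent of each gene list (number of genes at the CPM minimum in brackets) that was over 2-fold higher (right, red) or lower (left, blue) in the replicate 1 libraries of both groups, and dotted lines give the same shares over all 8730 genes, 10.9% and 13.6%. Mitochondrial mRNAs, matrix and secretory genes lie furthest to the right, and ribosome biogenesis reaches furthest to the left, followed by p53 targets (17 of 34), mitosis (3 of 6) and replication-dependent histones (6 of 13).

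Among the 10 higher genes with the largest folds were MXRA5, ITGA8, SLCO2A1, RIPOR3, CCN4, BDKRB2, CEMIP, DCHS1 and CSF2. MXRA5, a matrix-associated protein, was at 36.1 and 93.6 CPM in the replicate 1 libraries and 0.176 and 0.0998 CPM in the replicate 2 libraries. It was at 14.98 and 17.6 CPM in WT, and in the second-set ICM libraries at 0.237 CPM in ICM 3 with no count in ICM 4. CEMIP, which takes part in the breakdown of hyaluronan, was at 1976 and 3184 CPM beside 56.3 and 99.2 CPM, with 2660 and 1719 CPM in WT. BDKRB2, a receptor for bradykinin, was at 585 and 959 CPM beside 17.95 and 21.2 CPM, with 579 and 497 CPM in WT. DCHS1, a large cadherin, was at 61.2 and 52.1 CPM beside 2.25 and 1.90 CPM, with 46.7 and 56.1 CPM in WT. In each of these 4 genes the replicate 1 levels were nearer WT, on the log scale, than the replicate 2 levels were.

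The 10 lower genes with the largest folds were TXNIP, NOG, EDN1, NOP56, CCDC112, HMOX1, MT1E, SLC35F2, ARRDC4 and AOX1. TXNIP, a thioredoxin-binding arrestin-like protein, was at 10.4 and 7.004 CPM in the replicate 1 libraries and 408 and 370 CPM in the replicate 2 libraries. WT, at 132 and 178 CPM, lay between, as did ICM 3 and ICM 4 at 54.0 and 53.5 CPM, while siSRRM2 was above all at 572 and 585 CPM. ARRDC4, a relative of TXNIP that like it is switched on by glucose, was at 8.14 and 3.93 CPM beside 51.9 and 35.2 CPM, with 11.7 and 15.8 CPM in WT. NOG, which encodes the BMP antagonist noggin, was at 4.88 and 4.47 CPM beside 46.6 and 47.6 CPM, with 5.77 and 3.12 CPM in WT. EDN1, endothelin 1, was at 7.87 and 7.06 CPM beside 69.7 and 80.2 CPM, and at 7.77 and 8.49 CPM in siSRRM2. EDN1 in siSRRM2 thus lay with replicate 1, unlike TXNIP.

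**Figure D3:**
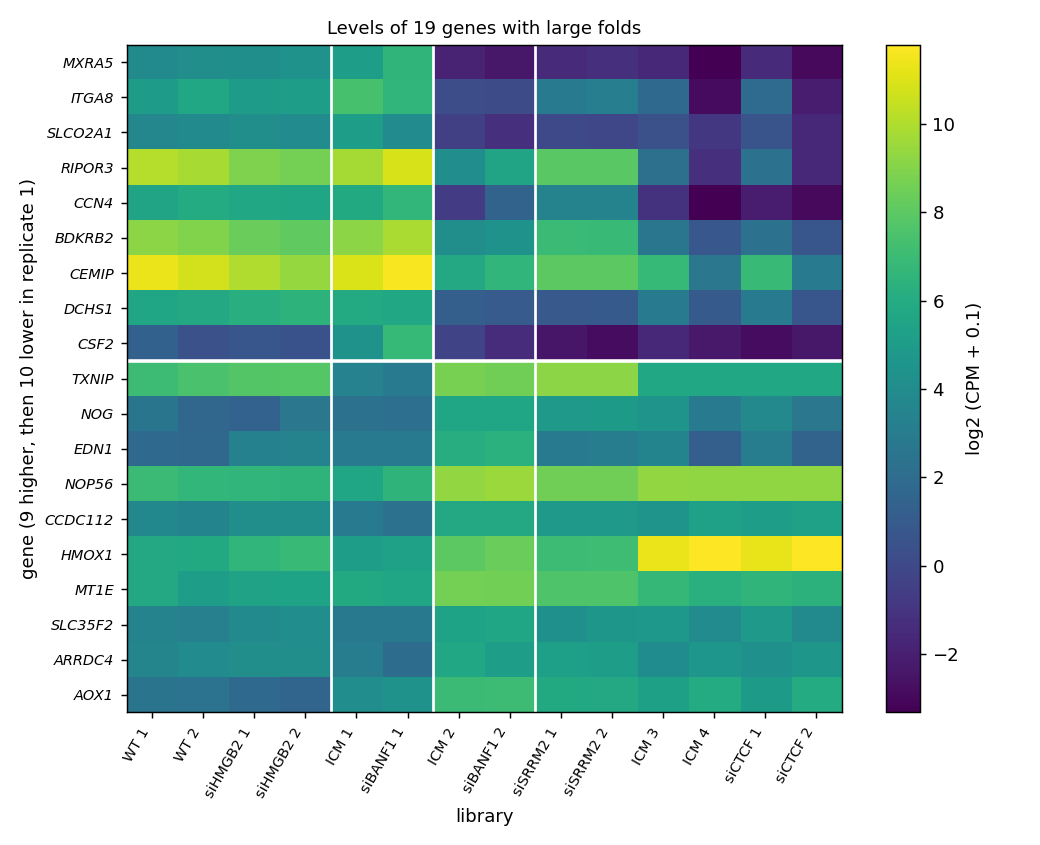
Colour gives log2 of CPM plus 0.1 for 9 of the 10 higher genes and for the 10 lower genes with the largest folds (rows) in each of the 14 libraries (columns), with white lines around ICM 1 and labelled siBANF1 1 and around ICM 2 and labelled siBANF1 2. For the higher genes the replicate 1 columns lie near or above the untreated columns, with CSF2, ITGA8 and MXRA5 above them, and the replicate 2 columns lie below them, while among the lower genes HMOX1 is highest in the second set and TXNIP is highest in siSRRM2.

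Promoters were searched for 8 motifs in the stretch around each gene start that RefSeq gives (build GRCh38.p14), on both strands, for the 7316 of 8730 genes that had an entry (742 higher and 1015 lower). The CCAAT box, CCAAT, was found in 30.2% of higher, 41.8% of lower and 36.7% of all entries searched. The E2F motif TTTNNCGC was found in 6.47% of higher, 13.6% of lower and 10.8% of all, and the NF-kB motif in 15.2%, 10.4% and 12.8%. The TATA box TATAAA was found in 7.68%, 6.70% and 5.04%, and the AP-1 motif TGANTCA in 4.58%, 5.62% and 4.37%. The CRE motif TGACGTCA was found in 2.43%, 4.63% and 3.58%, and the CArG box in 0.809%, 0.985% and 1.08%. The E-box CACGTG was found in 8.09% of higher, 9.66% of lower and 10.7% of all entries. It was present in 7 of 18 lower ribosome biogenesis genes and in 4 of 7 higher lysosome genes with an entry, so these letters occurred in genes of both directions. Over all 27305 promoter entries of that length, CCAAT was found in 35.7%, TTTNNCGC in 6.90% and CACGTG in 7.435%. A match is a description of the letters, not of a bound site.

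The 250 bases before the start are printed for 3 genes whose E-boxes show this, with CACGTG in capitals, each read 5′ to 3′ on the strand of its gene. They are the lower gene ARRDC4 at chr15:97960453-97960702 on the plus strand, the lower ribosome biogenesis gene NOP10 at chr15:34343137-34343386 on the minus strand, and the higher lysosome gene GAA at chr17:80101331-80101580 on the plus strand.
ARRDC4: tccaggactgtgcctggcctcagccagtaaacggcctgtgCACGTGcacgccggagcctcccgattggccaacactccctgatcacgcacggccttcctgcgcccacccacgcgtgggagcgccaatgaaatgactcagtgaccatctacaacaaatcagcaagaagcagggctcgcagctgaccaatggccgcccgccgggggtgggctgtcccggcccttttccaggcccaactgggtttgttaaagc
NOP10: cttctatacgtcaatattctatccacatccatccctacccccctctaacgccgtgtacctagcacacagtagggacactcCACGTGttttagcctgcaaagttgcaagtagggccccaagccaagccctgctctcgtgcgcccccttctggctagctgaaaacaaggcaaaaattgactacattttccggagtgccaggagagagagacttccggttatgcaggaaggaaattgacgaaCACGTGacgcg
GAA: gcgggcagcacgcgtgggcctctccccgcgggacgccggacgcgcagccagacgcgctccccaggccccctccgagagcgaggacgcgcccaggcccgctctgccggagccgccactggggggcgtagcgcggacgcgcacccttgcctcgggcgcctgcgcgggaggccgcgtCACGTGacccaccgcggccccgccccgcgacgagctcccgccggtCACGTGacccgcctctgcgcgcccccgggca
ARRDC4 holds 1 match, and NOP10 and GAA hold 2 each. NOP10, a protein of the box H/ACA particles, was at 81.2 and 77.7 CPM in the replicate 1 libraries and 190 and 204 CPM in the replicate 2 libraries, with 97.8 and 78.6 CPM in WT. All 3 genes were chosen for their E-boxes after their values were known, ARRDC4 from among the 10 lower genes with the largest folds.

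The question of where untreated cells lie was answered with the WT libraries, none of which chose the members. The WT mean was nearer the replicate 1 than the replicate 2 libraries for 809 of the 951 higher genes (85.1%) and 903 of the 1188 lower genes (76.0%). Over all 8730 genes this share was 63.7%. The median log2 difference from WT was 0.11 in the replicate 1 and -1.85 in the replicate 2 libraries for the higher genes, and -0.44 and 1.05 for the lower genes. Whole lists, members or not, were divided. The same medians were -0.89 and -0.23 for NRF2 targets, -1.07 and -0.40 for splicing factors and -0.93 and -0.18 for cytosolic ribosomal proteins. For DNA replication they were -0.94 and -0.07, so in these lists replicate 1 lay further from WT. For p53 targets they were 0.08 and 1.15, for matrix genes -0.34 and -2.675, and for secretory genes -0.03 and -1.95. There replicate 1 lay nearer WT. The siHMGB2 libraries lay with WT, nearer replicate 1 for 784 higher (82.4%) and 918 lower genes (77.3%), where the share over all genes was 64.8%. The second set lay on the other side. The mean of ICM 3 and ICM 4 was nearer replicate 1 for only 181 higher and 230 lower genes, where the share over all genes was 36%. Its median log2 difference from WT was -1.91 for the higher and 0.82 for the lower genes.

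**Figure D4:**
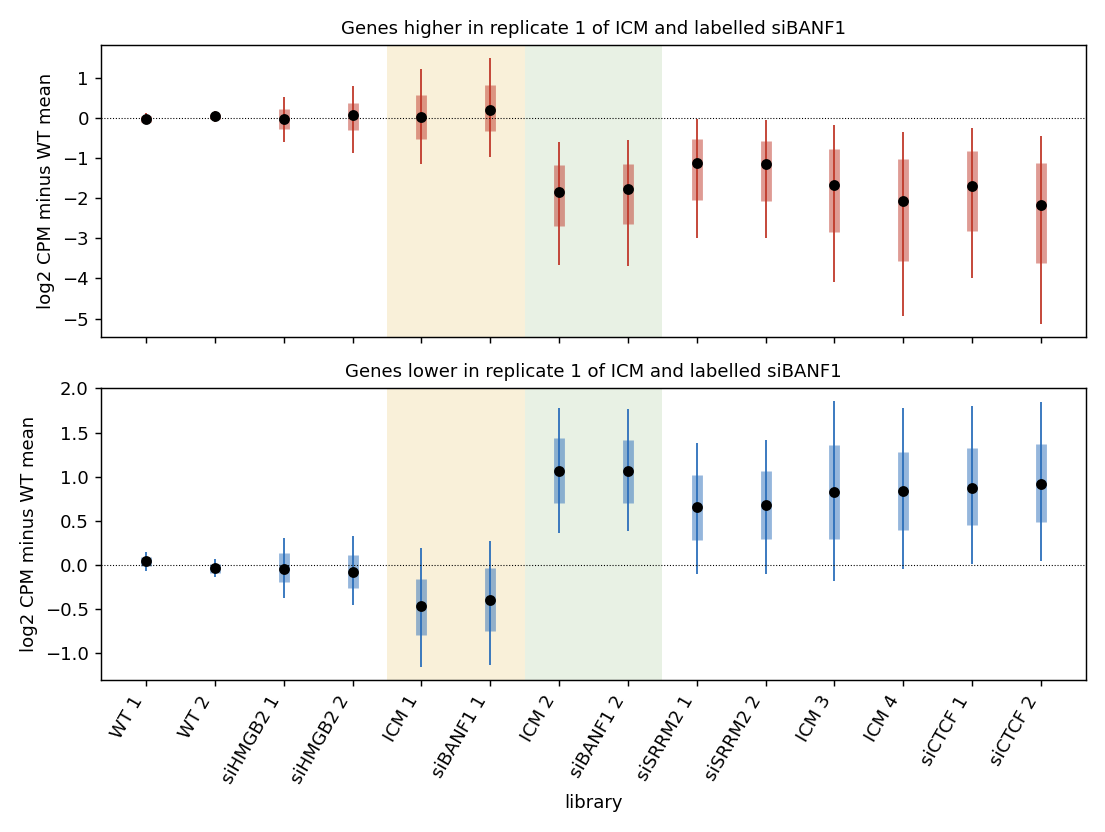
For each of the 14 libraries the dot is the median, the thick bar the interquartile range and the thin line the 10th to 90th percentile of log2 CPM minus the WT mean, over the 951 higher genes (top) and 1188 lower genes (bottom), with the replicate 1 libraries shaded yellow and the replicate 2 libraries green. ICM 1 and labelled siBANF1 1 lie near WT, and ICM 2 and labelled siBANF1 2 lie beside siSRRM2 and the second set.

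The comparison of ICM 3 and ICM 4 with WT used none of the 4 libraries that chose the members. It was fitted with edgeR's quasi-likelihood test to the 10 other libraries, with Benjamini-Hochberg adjustment over 17907 genes. Of the 951 genes higher in replicate 1, 797 (83.8%) fell in ICM 3 and 4 against WT and 24 rose, where 31.3% of the genes at the CPM minimum fell and 33.6% rose. Of the 1188 genes lower in replicate 1, 865 (72.8%) rose and 42 fell. The median log2 change was -1.86 for the higher and 0.85 for the lower genes, beside 0.02 over all genes. No untreated library belongs to the second set, so the effect of ICM and that of the set cannot be told apart here.

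Among matrix genes, all 34 of the higher ones fell in ICM 3 and 4, as did all 28 higher secretory genes and all 11 mitochondrial mRNAs. Nearly all matrix genes fell, members or not, at 45 of all 46. Of all 47 secretory genes 36 fell, and most of those 36 were the higher members. CCN4, a matricellular signalling protein, was at 45.0 and 64.1 CPM in WT, 0.355 CPM in ICM 3 and no count in ICM 4 (log2 change -8.30 ± 0.57 SE, edgeR adjusted p = 5.72e-06). It was at 59.2 and 102 CPM in the replicate 1 libraries. BDKRB2 fell by 7.15 on the log2 scale (SE 0.67, edgeR adjusted p = 2.61e-05) and RIPOR3 fell by 8.64 (SE 1.24, edgeR adjusted p = 0.000332). Among lower genes, 15 of 17 p53 targets, 20 of 22 ribosome biogenesis genes, 8 of 9 NRF2 targets and 6 of 9 heat shock genes rose. Over the whole lists, members or not, 25 of 34, 26 of 32, 17 of 22 and 14 of 20 rose, so the share among heat shock members was no larger than in their list. CDKN1A rose by 3.06 (SE 0.19, edgeR adjusted p = 3.93e-06) and NOP56 by 2.51 (SE 0.14, edgeR adjusted p = 3.08e-06). HMOX1 rose by 5.76 (SE 0.26, edgeR adjusted p = 1.21e-06). TXNIP, the lower gene with the largest folds, was an exception and fell by 1.51 (SE 0.15, edgeR adjusted p = 3.40e-05). Without ICM 3 the log2 difference of EDN1 was -0.58, and without ICM 4 it was 1.72. With both, EDN1 did not pass, with a log2 difference of 0.98 (SE 0.66, edgeR adjusted p = 0.227) and levels of 11.1 and 2.26 CPM in ICM 3 and ICM 4. Of 8 lower cytosolic ribosomal protein genes 1 rose and 2 fell.

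The siSRRM2 libraries are the treated first-set group that the rule did not use. They differ from WT in treatment, in siRNA and in the make-up of the library, and these cannot be told apart here. Small RNA genes took 5.11% and 5.77% of gene counts in siSRRM2, against 0.00823% and 0.00835% in WT. Reads not placed uniquely made up 14.96% and 14.47% in siSRRM2, against 7.668% and 7.452% in WT. The part of library make-up in the calls below was not tested. The comparison also shares its WT libraries with the one above, so the values are only set side by side. In the same edgeR fit 661 of the 951 higher genes (69.5%) fell in siSRRM2 against WT and 33 rose, where 27.2% of the genes at the CPM minimum fell and 29.1% rose. Of the 1188 lower genes 784 (66.0%) rose and 47 fell. The siSRRM2 mean was nearer replicate 1 for 268 higher and 199 lower genes, where the share over all genes was 33.4%. In median, siSRRM2 stood between the pairs, at a log2 difference from WT of -1.15 for the higher and 0.67 for the lower genes. In siSRRM2 replicate 1, 738 higher genes (77.6%) and 1001 lower genes (84.3%) lay between the means of the replicate 1 and the replicate 2 libraries, an interval that the choice of members makes wide.

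Within the lists, siSRRM2 followed ICM 3 and 4 for some members and not for others. All 17 lower p53 targets rose, CDKN1A by 2.94 (SE 0.19, edgeR adjusted p = 5.71e-06), and all 11 higher lysosome genes and all 11 mitochondrial mRNAs fell. Of the 34 higher matrix genes 24 fell and 1 rose, and of 28 higher secretory genes 21 fell and 1 rose. PLAT had a log2 difference of 0.37 (SE 0.99, edgeR adjusted p = 0.777) in siSRRM2, at 5578 and 5754 CPM, while it fell by 5.65 (SE 1.21, edgeR adjusted p = 0.00332) in ICM 3 and 4. The levels of PLAT in siSRRM2 thus lay near WT, with both replicate 1 libraries above them and both replicate 2 libraries below. Over the whole lists, members or not, 30 of 34 p53 targets rose, and 20 of 33 lysosome, 29 of 46 matrix and 28 of 47 secretory genes fell. Of 9 lower NRF2 targets 1 rose and 2 fell in siSRRM2, and of all 22 in the list 1 rose and 12 fell. AKR1C1, an aldo-keto reductase with close paralogs, fell by 0.74 (SE 0.22, edgeR adjusted p = 0.0188) in siSRRM2 and rose by 1.94 (SE 0.22, edgeR adjusted p = 8.95e-05) in ICM 3 and 4. TXNIP rose by 1.90 (SE 0.15, edgeR adjusted p = 1.55e-05) in siSRRM2. All 13 histone genes at the CPM minimum rose, the 9 members and the 4 others alike, at a median log2 change of 5.14, in libraries where small RNA genes also took a larger share of counts than in WT. When all 14 libraries entered the fit, so that the spread between the 4 libraries that chose the members counted as error, 42.6% of the higher genes fell and 19.4% of the lower genes rose in ICM 3 and 4, beside 17% and 14.3% of all genes. In siSRRM2 these shares were 16% and 5.81%, beside 10.1% and 6.71% of all genes, so the lower genes then did not exceed the background.

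The 2 replicate 1 libraries were not copies of each other. Labelled siBANF1 1 and ICM 1 differed by over 2-fold at 766 of the 8730 genes, 447 higher (5.12%) and 319 lower (3.65%) in labelled siBANF1 1. Labelled siBANF1 2 and ICM 2 differed at 35 genes, 9 higher (0.103%) and 26 lower (0.298%). Of the 951 higher genes, 125 were over 2-fold higher and 43 lower in labelled siBANF1 1 than in ICM 1. Of the secretory genes 23 of 47 were higher in labelled siBANF1 1 and 4 lower, with a median log2 difference of 0.85, beside 0.08 over all genes. IL1B, an inflammatory cytokine, stood at 156 CPM in ICM 1 but at 1440 CPM in labelled siBANF1 1, beside 10.8 and 17.7 CPM in the replicate 2 libraries and 312 and 174 CPM in WT. CXCL5, another neutrophil chemokine, was at 39.8 and 136 CPM beside 5.69 and 3.495 CPM. Of 11 mitochondrial mRNAs 7 were over 2-fold higher in labelled siBANF1 1, and of 29 glycolysis and hypoxia genes 11 were over 2-fold lower. ACTA2, smooth muscle actin, stood at 327 CPM in ICM 1 but at 65.9 CPM in labelled siBANF1 1, beside 54.1 and 54.2 CPM in the replicate 2 libraries, and so differed by over 2-fold in ICM alone. Each of these values rests on 1 library.

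The other replicate pairs of the series were read for the same genes. The siSRRM2 pair had none of the 951 higher genes over 2-fold higher in replicate 1, the WT pair had 8 and the siHMGB2 pair 13, where the shares over all genes were 0%, 0.137% and 0.275%. Of the 1188 lower genes none, 1 and 2 were over 2-fold lower in replicate 1, where the shares over all genes were 0.0115%, 0.0344% and 0.0573%. The second-set pairs did differ. ICM 3 was over 2-fold above ICM 4 at 205 of the 951 higher genes (21.6%), where the share over all genes was 4.23%. Labelled siCTCF 1 was over 2-fold above labelled siCTCF 2 at 208 (21.9%), where the share over all genes was 4.15%. These pairs cannot be counted as separate observations. ICM 3 and labelled siCTCF 1 differed by over 2-fold at only 19 of the 8730 genes, and ICM 4 and labelled siCTCF 2 at 15. At 167 of the 951 higher genes (17.6%) both pairs passed in this direction, where the share over all genes was 3.30%. ITGA8 had 3.47 and 0.0342 CPM in ICM 3 and ICM 4, and CEMIP 111 and 6.27 CPM, in both cases far below the replicate 1 libraries of the first set. Of the 1188 lower genes only 23 were over 2-fold lower in ICM 3 than in ICM 4 (1.94%), beside 2.33% of all genes, and 9 were in labelled siCTCF 1 (0.758%), beside 0.79% of all genes. HMOX1, for one, was at 2633 and 3517 CPM.

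The members also differed in length. The median coding length was 2133 bases for the higher genes, 1064 bases for the lower genes and 1467 bases for all genes, over the 97.9% of genes with a value in GENCODE release 29. When the genes were divided into 5 bins of about equal number by coding length, the share of higher genes went from 4.67% in the shortest bin to 20.8% in the longest, and that of lower genes from 21.5% to 4.10%. The median GC content of the transcript was 53.4% for higher, 45.6% for lower and 47.9% for all genes, and the median number of exons was 13, 8 and 10. The same length pattern was seen against WT within the replicate 1 libraries. The median log2 difference of ICM 1 from WT was -0.41 in the shortest and 0.16 in the longest bin, and that of labelled siBANF1 1 was -0.45 and 0.32. In ICM 2 these medians were 0.15 and -0.02, and in labelled siBANF1 2 0.18 and -0.09. The second set and siSRRM2 also went from higher to lower with length, at 0.17 and -0.30 in ICM 3, 0.00309 and -0.10 in ICM 4, and 0.13 and -0.10 for the siSRRM2 mean. For the mean of ICM 3 and 4, the comparison tested on the members, the medians were 0.08 and -0.21. The part of transcript length, and of the reads in no gene, in the replicate contrast was not tested.

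**Figure D5:**
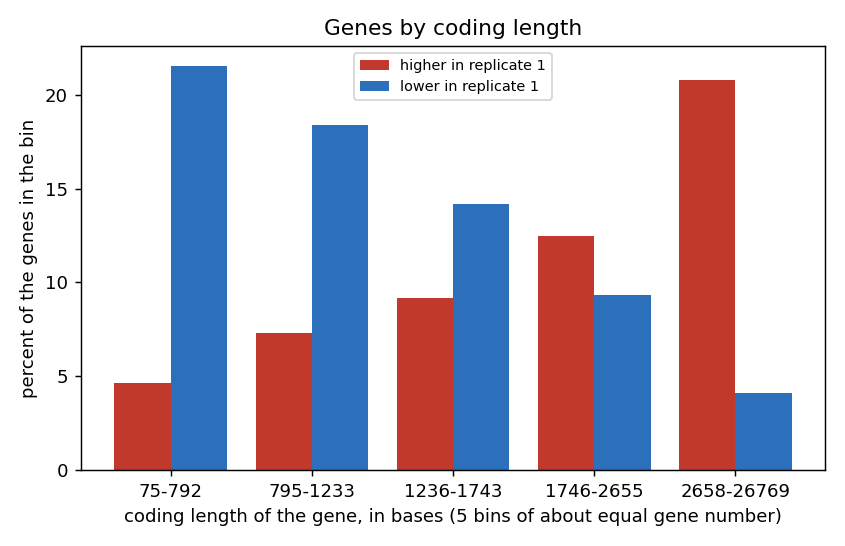
Bars give the percent of genes higher (red) and lower (blue) in the replicate 1 libraries of both groups, in 5 bins of about equal gene number by coding length in bases. The share of higher genes goes from 4.67% to 20.8% from the shortest to the longest bin, and the share of lower genes from 21.5% to 4.10%.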

How the data were processed

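RNA sequencing of 14 IMR90 libraries gave raw counts for each gene symbol, in 1 deposited file for each library. Per the submitters' processing notes, STAR 2.7.3a, HTSeq 0.12.4, DESeq2 1.36.0 and the build hg38 were used, and their roles, the annotation release and the strand setting are not given in the sources used here. Without strand, reads of overlapping genes cannot be told apart. The libraries were made with a TruSeq kit and sequenced paired-end, per the labels' protocols. Each file lists 54628 symbols, and 5 lines for reads given to no gene (12.8% to 41.8% of reads) entered neither library sizes nor tests. Protein-coding genes were the 19276 symbols that match the RefSeq table (GRCh38.p14) directly.

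CPM were computed on library sizes scaled by TMM over all 14 libraries with edgeR 4.0.16 in R 4.3.3, and counts below 3 were set to 3 in ratios. The replicate contrast was not tested. ICM 3 and 4 and siSRRM2 were compared with WT by edgeR's quasi-likelihood test on the 10 other libraries (a mean for each of 5 groups, 5 residual degrees of freedom, filterByExpr, adjusted p under 0.05), after a check on simulated data. The fit took ICM 3 and 4 and the siCTCF libraries as unpaired, and their pairing was not checked. Yet ICM 3 lay close to siCTCF 1 and ICM 4 close to siCTCF 2 (19 and 15 genes over 2-fold). The 5 residual degrees of freedom may therefore be overstated. The labels share replicate numbers, which did not pair the samples in the fit with the block: the correlation of replicate deviations was -0.06 for WT and siSRRM2, 0.18 for WT and siHMGB2 and 0.05 for siHMGB2 and siSRRM2.

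Named genes were the 4 targeted genes, the 10 higher and 10 lower genes with the largest smaller fold, 2 genes per list and direction, a panel of 10 genes and the genes at the threshold, and 1 gene that the rule names is not reported here. Other genes named (FN1, BGN, MYOCD, GAA, FAS, MRPS22, NOP10, COX1, IL1B, CXCL5, CXCL2 and the marker genes) and the 6 symbol families were chosen after their values were seen. The members, the 24 lists and the tests were chosen with earlier results of these data known. Scalings, filters, thresholds, DESeq2 1.42.0, other sets of libraries and each left-out library were tried as alternatives. Depth bounds counting error only.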

Additional observations from a re-analysis of the deposited data

Results flagged for a closer look

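Among the 4 ICM libraries, log2 CPM of 100 named genes were tested for a library far from the others (Dixon's test, gap over range, 95% critical value 0.829), and 17 genes passed. Chance flags about 1 in 20 groups, but most of the 100 genes were named for a large gap between ICM 1 and ICM 2, so the count cannot be read against that rate and is a description. The test joins both sets of libraries. In 15 genes the library apart was ICM 1. It was the lowest for CTCF (0.846), NOP56 (0.973), MCM3 (0.905), DDIT3 (0.855), ZNF622 (0.926), RPS26 (0.920), PKM (0.886), PTTG1 (0.963), CYC1 (0.901), TRIAP1 (0.860), PSMB6 (0.945), H2BC21 (0.846) and PRPF4 (0.964), and the highest for MXRA5 (0.858) and HSPA2 (0.972). In TPP1 (0.905) and ND4 (0.939) the library apart was ICM 2, the lowest. All of these genes but CTCF are members, for which ICM 1 and ICM 2 differ by the rule.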

How the results depend on the processing

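The count of members depends on its thresholds. With a mean CPM of at least 1 there were 1500 higher genes, with no minimum beyond 10 counts 1995, at 4-fold 283 higher and 81 lower, and at 1.5-fold 1558 higher and 2435 lower. The other scalings, a mean over all 14 libraries and either group alone kept both counts within 1.5 times. For ICM 3 and 4 against WT, the fit of all 14 libraries called 405 higher genes lower and 0 higher, and 230 lower genes higher and 5 lower. For siSRRM2 these were 152 and 6, and 69 and 2. Over all genes at the CPM minimum this fit called 17% lower and 14.3% higher, and for siSRRM2 10.1% and 6.71%. Requiring also over 2-fold left, for ICM 3 and 4, 6 higher genes called higher (0.631%). Of the lower genes 500 were called higher (42.1%) and 13 lower (1.09%), and for siSRRM2 327 (27.5%) and 13 (1.09%). Over all genes 13.9% were then called higher and 18% lower for ICM 3 and 4, and 9.34% and 13.6% for siSRRM2. At an adjusted p under 0.01 there were 14 higher genes called higher (1.47%) and 20 lower genes called lower (1.68%) for ICM 3 and 4. For siSRRM2 there were 24 lower genes called lower (2.02%). Over all genes 26.5% were then called higher and 24.2% lower for ICM 3 and 4, and 19.5% and 20.1% for siSRRM2. Lower genes called lower for ICM 3 and 4 numbered 20 (1.68%) with total counts and 22 (1.85%) with only the compared libraries. Over all genes 24.1% and 25.6% were called lower in these 2 settings. With only the compared libraries siSRRM2 had 62 higher genes called higher (6.52%) and 86 lower genes called lower (7.24%). In that setting 41.6% of all genes were called higher and 38.2% lower in siSRRM2. Leaving out 1 library at a time gave, for ICM 3 and 4, 718 to 820 higher genes called lower and 12 to 22 higher, and 728 to 873 lower genes called higher and 22 to 61 lower. For siSRRM2 these were 525 to 580 and 19 to 27, and 566 to 642 and 19 to 33. Counts moved by over 1.5 times without WT 1 or WT 2 for ICM 3 and 4, and without WT 1, siSRRM2 1 or siSRRM2 2 for siSRRM2, all in the counts against the main direction. These fits assume that a lone library varies like the other groups. With the replicate block in the 6 libraries of WT, siHMGB2 and siSRRM2, 62 higher genes were called higher in siSRRM2, and 57 without the block. Over all genes 38.7% were called higher with the block and 38.9% without it. The block moved no count by over 1.5 times against the same 6 libraries without it. Of single genes, EDN1 in ICM 3 and 4 reversed to -0.58 without ICM replicate 3 and was 1.72 without ICM replicate 4. Over the settings of 21 named genes, 509 kept call and direction, 55 lost the call, 29 of them with all 14 libraries, and 13 gained it. The causes were not tested.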
